A study of Rattus norvegicus with 6 samples.

Results

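Messenger RNA of ion channel genes was followed in H9C2 cells, a rat line derived from embryonic heart, after knockdown of PUM2. A gene was included when the count table called it protein coding, when its symbol began with one of the family names of potassium (Kcn), voltage-gated calcium (Cacn), voltage-gated sodium (Scn), CLC chloride (Clcn), hyperpolarization-activated (Hcn), transient receptor potential (Trpc, Trpm, Trpv) or Piezo genes, and when its mean raw count over the 6 libraries was 10 or more. Of 19825 genes listed, 101 matched by symbol and type and 48 reached the count minimum. The minimum was set on the level over all libraries, so the levels below are a description of what was selected, whereas the difference between the groups was not part of the rule. Just inside the minimum lay Kcnk2, Cacna1a and Cacna1s with mean counts of 23.2, 17.7 and 15.8, and just outside it Kcnn3, Clcn1 and Trpm1 with 9.83, 8.83 and 8.83.

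Ion channels are membrane proteins whose pores let selected ions cross. Sodium and calcium channels depolarize a muscle cell and bring in the calcium that starts contraction, potassium channels bring the voltage back and hold it at rest, and chloride and mechanically gated channels act on cell volume, organelles and the response to stretch. Many pores work with auxiliary subunits that set their gating and their number at the surface. PUM2 belongs to the Pumilio proteins, which bind messages that carry a short element and are known for lowering how long these last or how well they are translated.

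The 3 siPUM2 libraries came from H9C2 cells in which PUM2 was inhibited by transfected small interfering RNA, and the 3 NC libraries from H9C2 cells described as transfected with empty vector. The labels mention no non-targeting small interfering RNA, so the knockdown and the kind of nucleic acid transfected cannot be told apart. They name no separate cultures either, so the p-values reflect how far the libraries of a group differ, and this may be technical spread. The libraries held 27704702 to 30579237 counts, so 1 count was worth 0.0326 to 0.0360 CPM (counts scaled to a common library size, here with TMM scaling of the library sizes). Pum2, the targeted gene, stood at 223, 228 and 225 CPM in NC and at 127, 125 and 120 CPM in siPUM2, with a log2 fold change of -0.86 ± 0.0279 (SE; adjusted p = 9.23e-19, edgeR quasi-likelihood test with Benjamini-Hochberg adjustment over all genes). Of 9 cardiomyocyte markers with a value, 6 averaged under 10 counts, among them Myh7, Tnni3, Actc1 and Myl2, whereas Tnnt2 was abundant at 171 to 206 FPKM in NC and rose to 273 to 309 FPKM in siPUM2 (log2 fold change 0.67; adjusted p = 2.86e-12, edgeR). Of the other cardiomyocyte markers tested, Myh6 and Nppb were not called, and the part of Tnnt2 in the channel values was not tested. The myoblast genes Myod1 and Cdh15 were present at 35.7 to 39.9 and 52.5 to 63.1 FPKM over the 6 libraries, so the cells called cardiomyocytes in the labels lacked most defining transcripts of adult heart muscle.

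Of the 48 channel genes, RefSeq promoters on the assembly GRCr8 were matched for 31. The 250 bases before the annotated start are shown for Trpv2, Kcnj8 and Kcnh1, the 3 genes with an entry among those whose difference passed the test under every alternative described at the end. Capitals mark GGGCGG on either strand, a GC box of the kind bound by SP factors. Trpv2 lies at chr10:47771973-47772222 (plus strand), Kcnj8 at chr4:177246549-177246798 (minus strand) and Kcnh1 at chr13:106252966-106253215 (plus strand), each printed 5' to 3' on the strand of the gene.
Trpv2: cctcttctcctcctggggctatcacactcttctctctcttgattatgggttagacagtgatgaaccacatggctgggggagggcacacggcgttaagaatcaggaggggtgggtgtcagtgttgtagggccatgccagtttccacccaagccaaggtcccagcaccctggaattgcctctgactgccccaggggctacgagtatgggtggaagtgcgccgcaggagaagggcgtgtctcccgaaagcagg
Kcnj8: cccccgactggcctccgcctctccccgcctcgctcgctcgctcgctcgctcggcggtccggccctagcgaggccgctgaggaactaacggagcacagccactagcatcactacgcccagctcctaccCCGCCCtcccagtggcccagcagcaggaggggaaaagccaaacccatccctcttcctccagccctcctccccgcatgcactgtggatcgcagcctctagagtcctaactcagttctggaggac
Kcnh1: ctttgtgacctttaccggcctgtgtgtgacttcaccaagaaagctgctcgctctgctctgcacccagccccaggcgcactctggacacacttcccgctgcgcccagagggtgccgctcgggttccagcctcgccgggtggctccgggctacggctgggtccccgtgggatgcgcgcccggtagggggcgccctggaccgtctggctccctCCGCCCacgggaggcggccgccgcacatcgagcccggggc
The GC box was present in the Kcnj8 and Kcnh1 windows and had no match in that of Trpv2. It was found in 18 of the 31 channel promoters and in 30.5% of all 33469 promoters of the same length, and the channel promoters had a median GC content of 65.2% against 51.2%. The channel promoters belong to protein-coding genes over the count minimum, whereas the full set was not limited to such genes. These are unlike sets, and how far that bears on the shares was not tested. The CArG box of serum response factor matched 0 of 31 (1.50% of all promoters), TATAAA matched 2 (12.9%), TGACGTCA matched 1 (1.59%) and CACGTG matched 3, those of Clcn6, Clcn7 and Trpm7 (5.59%). All motifs were sought on both strands, a CArG box can itself contain TATAAA, and a match is a description of these windows only.

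Levels are compared between genes in FPKM, the authors' fragment values scaled by gene length and library size. Only 6 of the 48 genes had a mean of 10 FPKM or more over the 6 libraries, 17 lay between 1 and 10, and 25 lay under 1. The highest was Trpc4ap at 37.3 FPKM, a protein that binds TRP channels and serves a ubiquitin ligase and is itself no channel, although its symbol meets the rule. Next came Cacnb3, an auxiliary beta subunit of calcium channels, at 27.1 FPKM, and Kcnj8, the inward rectifier that forms the pore of vascular ATP-sensitive potassium channels, at 20.1 FPKM. Kcnmb4, a beta subunit of the large-conductance calcium-activated potassium channel, stood at 12.7 FPKM, Clcn7, the chloride-proton exchanger of lysosomes, at 12.7 FPKM, and Piezo1, the stretch-gated cation channel, at 11.7 FPKM. Lower levels were those of the channel kinase Trpm7 (5.87 FPKM), the inward rectifier Kcnj15 (5.77 FPKM) and the endosomal exchanger Clcn5 (3.59 FPKM). Kcnmb4 and Clcn7, and likewise Trpm7 and Kcnj15, did not differ beyond their spread between libraries. Together the 48 genes took 0.0916% to 0.0946% of the counts in NC and 0.0956% to 0.0979% in siPUM2. Of the counts of these genes, Piezo1 and Trpc4ap alone made up 27.69% to 27.95% in NC and 29.36% to 29.95% in siPUM2. The totals thus lean on a few abundant genes and do not show that the channel genes rose as a set.

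**Figure D1:**
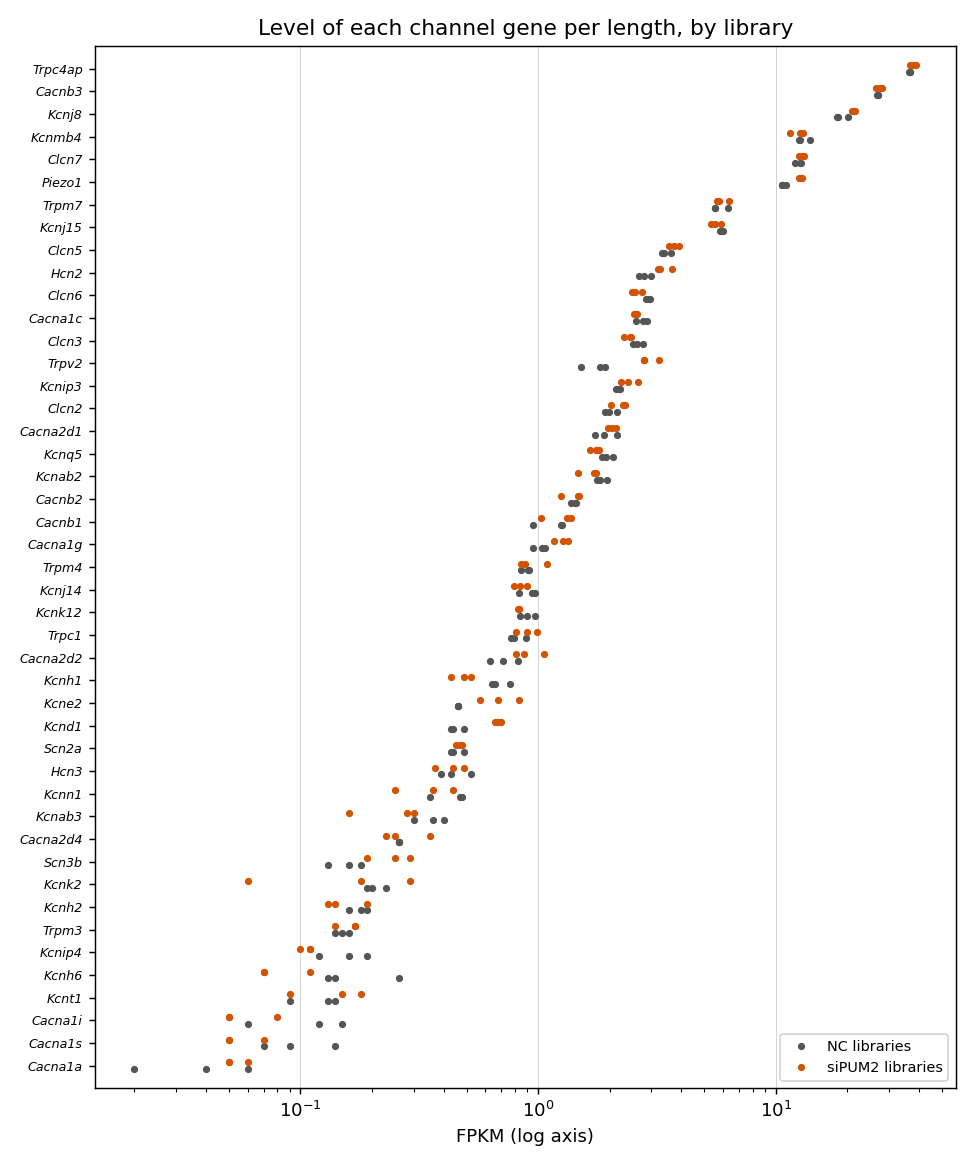
Level of 45 of the 48 channel genes in FPKM on a log axis, ordered by mean, with 1 point per library (NC dark, siPUM2 orange). The genes run from Cacna1a at a mean of 0.0467 FPKM to Trpc4ap at 37.3 FPKM, and the libraries of both groups lie close together for most genes.

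Knockdown of PUM2 moved some channel genes up and others down, and they did not move as a group. All 48 passed the filter on low counts and were tested: 7 rose, 5 fell and 36 were not called at an adjusted p under 0.05. That is 25% called, where 28.4% of all 12985 genes tested were called, 15.1% higher and 13.3% lower, so the share among channel genes was near the background. The median log2 fold change was 0.04 for the channel genes and 0.001 for all genes tested. The groups did not overlap for 17 channel genes (35.4%), 9 higher and 8 lower, against 39.9% of all genes. The channel genes were mostly less abundant than other genes, with a median of 6.19 CPM against 23.5 CPM, and their log2 fold changes had a median SE of 0.115 against 0.0614. Under 100 mean counts 3 of 17 channel genes were called (7.16% of all such genes), between 100 and 1000 counts 6 of 22 (22.4%), and above 1000 counts 3 of 9 (45.3%). The called channel genes changed by a median of 0.41 on the log2 scale in either direction, and all called genes by 0.20. By level these medians were 0.93 against 0.81 under 100 mean counts, 0.41 against 0.27 up to 1000 and 0.18 against 0.16 above.

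**Figure D2:**
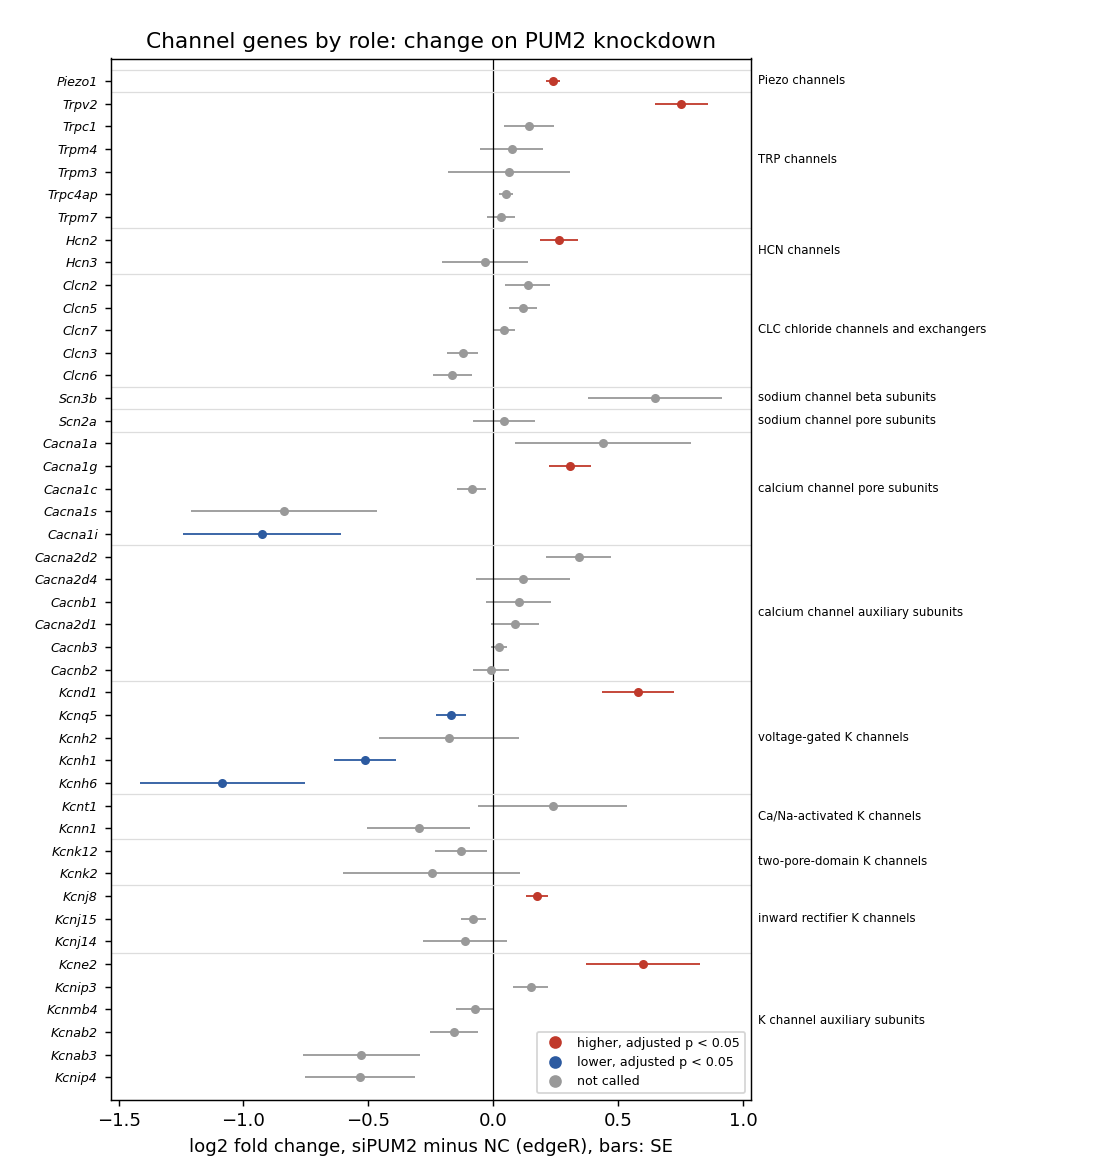
Log2 fold change (siPUM2 minus NC, edgeR) with its SE for 45 of the 48 channel genes, grouped by role, with genes that passed the test in red (higher) or blue (lower) and the rest in grey. Trpv2 has the highest value at 0.75 and Kcnh6 the lowest at -1.09, and most roles hold genes on both sides of 0.

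Among voltage-gated potassium channels, which repolarize the membrane, 1 of 6 rose and 3 fell (15.1% and 13.3% of all genes tested). Of those that fell, only Kcnh1 kept the call under every alternative fit at the 0.05 threshold. Kcnd1, a channel of the Shal family that carries a rapidly inactivating current, stood at 2.72, 3.01 and 2.64 CPM in NC and at 4.16, 4.07 and 4.29 CPM in siPUM2. All 3 siPUM2 libraries lay above all NC libraries, a 1.49-fold rise (log2 fold change 0.58 ± 0.144, SE; adjusted p = 0.00282, edgeR). Kcnh1, the ether-a-go-go channel studied for its part in cell cycle and tumour growth, went the other way, from 7.01, 5.86 and 6.10 CPM to 4.48, 3.96 and 4.81 CPM. Its groups did not overlap either, and the fall was 1.43-fold (log2 fold change -0.51 ± 0.123; adjusted p = 0.00204, edgeR). Kcnq5, a channel of the slow M-type current, fell 1.13-fold, from 25.9, 28.9 and 27.02 CPM to 24.5, 25.1 and 23.1 CPM (adjusted p = 0.0325, edgeR). Every siPUM2 library was lower, but the call was lost without NC 2 (adjusted p = 0.126) or siPUM2 3 (0.109), and with DESeq2 (0.0790).

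The erg-type channel Kcnh6 had the lowest value of all, on few reads. It had 47, 28 and 27 counts in NC and 21, 12 and 13 counts in siPUM2, a log2 fold change of -1.09 ± 0.330 (adjusted p = 0.0136, edgeR). The groups did not overlap, but NC 1 stood well above the other NC libraries, and without it the value was -0.74 (adjusted p = 0.153); without siPUM2 2 the adjusted p was 0.0710. Its relative Kcnh2, whose product repolarizes the heart muscle cell, had 26.2 counts on average and a log2 fold change of -0.18 ± 0.280, not called. The FPKM of the 6 genes summed to 3.84 to 3.90 in NC and to 3.59 to 3.67 in siPUM2, with Kcnq5 making up 49.2% of the sum.

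Inward rectifiers, which set the resting potential, had 1 of 3 genes called, where 28.4% of all genes tested were called. Kcnj8 stood at 59.9, 54.8 and 53.8 CPM in NC and at 63.5, 64.2 and 62.6 CPM in siPUM2. The groups were apart, with a 1.13-fold rise (log2 fold change 0.18 ± 0.0439; adjusted p = 0.00291, edgeR). Its sulfonylurea receptor partner Abcc9, picked after its values were seen, rose as well, from a mean of 74.7 to 81.6 CPM (log2 fold change 0.13 ± 0.0402; adjusted p = 0.0184, edgeR). Kcnj15 (log2 fold change -0.08 ± 0.0510) and Kcnj14 (-0.11 ± 0.167) were not called.

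The other potassium pores gave no calls. Of the tandem-pore-domain leak channels, Kcnk12 had 6.98, 6.49 and 7.43 CPM in NC and 6.40, 6.30 and 6.42 CPM in siPUM2, apart by a narrow margin and not called (adjusted p = 0.395, edgeR). Kcnk2, a leak channel opened by stretch and lipids, had 22, 29 and 26 counts in NC and 7, 33 and 22 in siPUM2. Its sign was set by siPUM2 1, the low library: the log2 fold change was -0.25 with it and 0.16 without it, and neither passed. The small-conductance calcium-activated channel Kcnn1 (log2 fold change -0.30 ± 0.205) and the sodium-activated channel Kcnt1 (0.24 ± 0.298) had wide errors for their 62.8 and 27.3 mean counts.

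Of 6 auxiliary subunits of potassium channels, 1 rose, where 15.1% of all genes tested rose. Kcne2, a single-pass subunit that modifies several voltage-gated pores, went from 1.14, 1.16 and 1.14 CPM to 1.71, 2.09 and 1.44 CPM, a log2 fold change of 0.60 ± 0.229 (adjusted p = 0.0497, edgeR). The groups were apart, but the call lay at the threshold and was lost when any library other than siPUM2 3 was left out (adjusted p = 0.0927 to 0.223) and with DESeq2 (0.144), other size factors (0.0506) or the replicate block (0.0541). Kcnip3, a calcium sensor that binds Shal channels and also acts as a transcription repressor, had higher values in all siPUM2 libraries (log2 fold change 0.15 ± 0.0685) without passing. Kcnip4, of the same family, had lower values in all of them (-0.53 ± 0.221, adjusted p = 0.0720, edgeR). Among the alternative fits it passed only without NC 2 (0.0308), and the adjusted p was 0.326 without NC 3 and 0.181 with DESeq2. The abundant Kcnmb4 was at -0.07 ± 0.0736, and the cytosolic beta subunits Kcnab2 and Kcnab3 at -0.16 ± 0.0974 and -0.53 ± 0.234, none of them called.

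**Figure D3:**
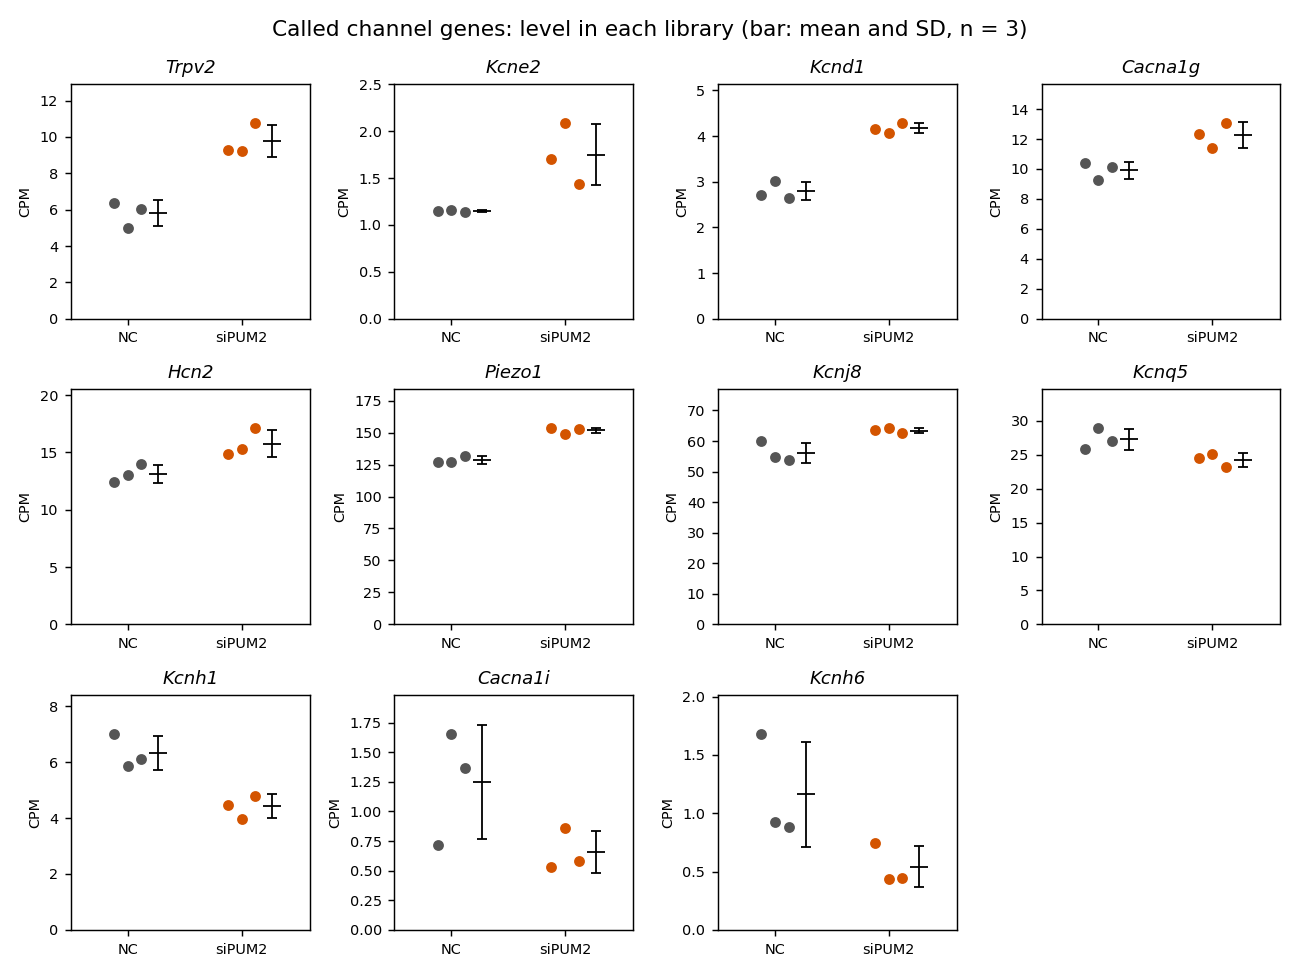
CPM in each library for 11 of the 12 channel genes that passed the test, with NC in dark and siPUM2 in orange and the mean with SD (n = 3) beside each group; each axis starts at 0 and has its own scale. The groups are apart for 10 genes and overlap for Cacna1i.

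Calcium channel pores split within the T-type family, the low-voltage channels of embryonic heart and pacemaker cells. Cacna1g stood at 10.4, 9.24 and 10.1 CPM in NC and at 12.3, 11.4 and 13.1 CPM in siPUM2. Every siPUM2 library was higher, a 1.24-fold rise (log2 fold change 0.31 ± 0.0843; adjusted p = 0.00620, edgeR). Cacna1i, another T-type pore at a far lower level, had 20, 50 and 42 counts in NC and 15, 24 and 17 in siPUM2. It was called lower (-0.93 ± 0.315; adjusted p = 0.0274, edgeR) although NC 1 lay among the siPUM2 libraries, and the call was lost without NC 2 (adjusted p = 0.190), NC 3 (0.0906), siPUM2 1 (0.105) or siPUM2 3 (0.0692) and with DESeq2 (0.0847).

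The L-type pore of the heart, Cacna1c, was the most abundant calcium pore and was not called (25.5 ± 1.29 to 24.0 ± 0.413 CPM, SD, n = 3; log2 fold change -0.09 ± 0.0584). The L-type pore of skeletal muscle, Cacna1s, had 17, 15 and 30 counts in NC and 10, 13 and 10 in siPUM2, apart but not called (-0.84 ± 0.372; adjusted p = 0.0942, edgeR). Markers of skeletal myoblasts did not move together beside this value. Of 5 tested, Myog fell by 1.12 on the log2 scale, Des, Cdh15 and Mymk rose (log2 fold change 0.17, 0.20 and 0.17), Myod1 was not called (0.05), and their summed level was 125 to 130 FPKM in NC and 128 to 136 FPKM in siPUM2; their part in the value was not tested. The neuronal pore Cacna1a was at 0.44 ± 0.354. The summed FPKM of the 5 calcium pores was 4.01 ± 0.164 in NC and 4.003 ± 0.0950 in siPUM2 (SD, n = 3), within which Cacna1g made up 25.5% ± 1.94 in NC and 31.5% ± 1.40 in siPUM2 and Cacna1c 68.3% ± 1.31 and 64.3% ± 0.555.

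None of the 6 auxiliary subunits of calcium channels was called by edgeR with all libraries, 1 had an unadjusted p under 0.05, and DESeq2 called 0. The former was Cacna2d2, an alpha2delta subunit that helps pores reach the surface, at 4.54, 4.04 and 5.22 CPM in NC and 6.72, 5.18 and 5.60 CPM in siPUM2. The groups overlapped between NC 3 and siPUM2 2, and the adjusted p was 0.0504 (log2 fold change 0.34 ± 0.131, edgeR). It fell to 0.0301 without NC 3, 0.0359 without siPUM2 2, 0.0496 without siPUM2 3, 0.0417 with the replicate block and 0.0276 without a count filter. It rose to 0.120 without NC 1, 0.226 without NC 2, 0.278 without siPUM2 1 and 0.137 with DESeq2, so the call turned on such choices. Cacnb3 made up 91.3% ± 0.710 of the FPKM of the beta subunits in NC and 91.2% ± 1.02 in siPUM2. Its log2 fold change was 0.02 ± 0.0313, and those of Cacnb2, Cacnb1, Cacna2d1 and Cacna2d4 lay between -0.01 and 0.12.

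Of the sodium channel genes, Scn2a, a neuronal pore, had a log2 fold change of 0.04 ± 0.124 and was not called. Scn3b, a beta subunit of the kind that tunes gating and adhesion, had 19, 26 and 29 counts in NC and 29, 43 and 39 in siPUM2. Its groups met at 29 counts and were apart by a narrow margin in CPM, and the difference was not called (log2 fold change 0.65 ± 0.269; adjusted p = 0.0726, edgeR).

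The CLC family, which holds chloride channels of the surface and chloride-proton exchangers of endosomes and lysosomes, gave no call by edgeR among 5 genes, with 2 at an unadjusted p under 0.05, and no call with DESeq2. Clcn7 was at 58.3 ± 1.78 CPM in NC and 60.1 ± 1.56 CPM in siPUM2 (SD, n = 3; log2 fold change 0.04 ± 0.0419). The late endosomal Clcn6 had 13.3, 13.1 and 12.7 CPM in NC and 12.3, 11.1 and 11.5 CPM in siPUM2, and Clcn3, of endosomes and synaptic vesicles, had 20.7, 19.9 and 21.9 CPM and then 19.6, 18.4 and 19.5 CPM. Both were lower in every siPUM2 library without passing (log2 fold change -0.16 ± 0.0762 and -0.12 ± 0.0611). Clcn5 (0.12 ± 0.0565) and the surface channel Clcn2 (0.14 ± 0.0889) had positive values. The FPKM of the family summed to 23.5 ± 0.378 in NC and 23.8 ± 0.267 in siPUM2.

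Of the hyperpolarization-activated channels, which carry the pacemaker current, Hcn2 rose. It stood at 12.4, 13.0 and 14.0 CPM in NC and at 14.9, 15.3 and 17.1 CPM in siPUM2. The groups were apart, with a 1.2-fold rise (log2 fold change 0.26 ± 0.0750; adjusted p = 0.00852, edgeR), and the call was lost without NC 1 (adjusted p = 0.0541) or siPUM2 3 (0.0879). Hcn3 was at -0.03 ± 0.173.

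The largest rise of all the channel genes was that of Trpv2, a cation channel linked to stretch and growth factor signalling in muscle. It had 6.37, 5.0 and 6.03 CPM in NC and 9.29, 9.22 and 10.8 CPM in siPUM2. The groups were far apart, with a 1.69-fold rise (log2 fold change 0.75 ± 0.107; adjusted p = 3.19e-06, edgeR). The other TRP entries had positive values that did not pass: Trpc1 0.14 ± 0.0999, the calcium-activated Trpm4 0.07 ± 0.125, Trpm3 0.06 ± 0.243, Trpc4ap 0.05 ± 0.0282 and Trpm7 0.03 ± 0.0555. The sign for Trpm7 turned without NC 1, NC 2 or siPUM2 2 (-0.003, -0.001 and -0.02), and that for Trpm4 without siPUM2 2 (-0.04). Without Trpc4ap the family summed to 9.42 ± 0.523 FPKM in NC and 10.9 ± 0.483 FPKM in siPUM2. Within this sum Trpv2 alone went from a mean of 1.75 FPKM to 2.94 FPKM.

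Piezo1, which opens when the membrane is stretched and lets in calcium, had the lowest p of the channel genes. It stood at 127, 127 and 132 CPM in NC and at 153, 149 and 153 CPM in siPUM2. The lowest siPUM2 library was well above the highest NC library, a 1.18-fold rise (log2 fold change 0.24 ± 0.0277; adjusted p = 1.30e-07, edgeR). Markers of smooth muscle moved in the same direction as the 7 channel genes that rose and opposite to the 5 that fell. This follows from the calls alone, as it holds for all 1961 genes called higher and all 1731 called lower. It therefore says nothing about the channel genes in particular. All 5 markers of smooth muscle (Acta2, Tagln, Myh11, Cnn1 and Myocd) were called higher, and their summed level was 7026 to 7166 FPKM in NC and 7974 to 8328 FPKM in siPUM2; their part in the channel values was not tested. Of 4 fibroblast markers tested, 1 was called higher and 2 lower. In such bulk samples, a change in the number of cells of a type and a change in RNA per cell cannot be told apart. Endothelial markers summed to 0.23 to 0.29 FPKM over the libraries, with Pecam1 and Cdh5 at 0.01 FPKM or less; 1 of the 5 was tested and not called. Neuronal markers were near 0 but apart between the groups, with sums of 0.15 to 0.30 FPKM in NC and 0.41 to 0.57 FPKM in siPUM2. Tubb3, the only one of them tested, rose on 19.2 mean counts (log2 fold change 1.31; adjusted p = 0.00382, edgeR), and its part in the channel values was not tested.

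Ion transport genes outside the family names were taken from 5 lists, of which 102 genes could be tested: 35 rose, 10 fell and 57 were not called, with a median log2 fold change of 0.06. That is 44.1% called, where the share was 28.4% over all genes tested, and these genes were more abundant, with a median of 32.3 CPM against 23.5 CPM. By level, 2 of 17 were called under 100 mean counts (7.16% of all such genes), 17 of 35 between 100 and 1000 counts (22.4%) and 26 of 50 above 1000 counts (45.3%). The lists were chosen with earlier results of these data known, so these shares cannot serve as a test of an excess over all genes. Intracellular and store-operated calcium channels had 12 of 24 genes higher and 1 lower (54.2% called). Pkd1 and Pkd2, the partner proteins of the polycystin calcium channel, rose 1.43-fold and 1.2-fold (86.0 ± 4.20 to 123 ± 3.16 CPM and 92.4 ± 0.589 to 111 ± 2.68 CPM, SD, n = 3), and Tmem38a, a potassium channel of the sarcoplasmic reticulum that balances charge during calcium release, rose 1.43-fold (31.3 ± 1.12 to 44.7 ± 0.960 CPM; adjusted p = 1.99e-08, edgeR). Among pumps and exchangers 8 of 23 rose and 3 fell (47.8% called). The sodium pump subunit Atp1b1 rose 1.27-fold (161 ± 1.49 to 204 ± 2.80 CPM), and the reticulum calcium pumps Atp2a2 and Atp2a1 rose 1.19-fold and 1.54-fold.

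Other anion channels had 5 of 22 higher and 2 lower (31.8% called, where 28.4% of all genes tested were called). The called genes of lowest p were the proton-activated chloride channel Pacc1 (1.36-fold, adjusted p = 6.74e-07, edgeR), the anoctamin Ano8 (1.29-fold) and Ostm1, the partner of Clcn7 (1.09-fold). Of 13 other cation channels 4 rose and none fell (30.8% called, near the share over all genes). The osmosensitive Tmem63b (1.13-fold), the ATP-gated P2rx4 (1.19-fold) and P2rx1 (1.67-fold, from 1.18 ± 0.0422 to 1.97 ± 0.282 CPM, call lost without siPUM2 3, adjusted p = 0.0609) had the lowest p. Among channel partners 6 of 20 rose and 4 fell (50% called, at a median of 44.0 CPM against 23.5 CPM for all genes tested). First by p were the calmodulin gene Calm2 (1.17-fold), the scaffold Dlg1 (1.16-fold) and ankyrin G (Ank3, 1.25-fold). 

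**Figure D4:**
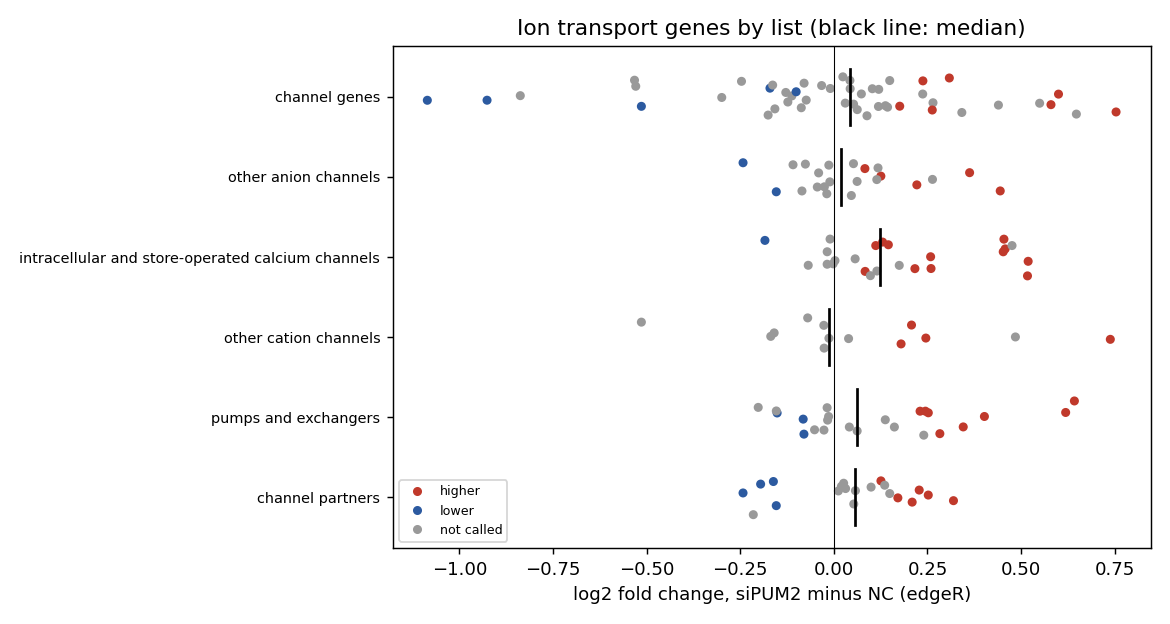
Log2 fold change (siPUM2 minus NC, edgeR) of the channel genes and of 5 further lists of ion transport genes, 1 point per gene tested, red for called higher, blue for called lower and grey for not called, with the median as a black line (vertical scatter within a row is for display). The medians run from -0.01 for other cation channels to 0.12 for intracellular and store-operated calcium channels.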

How the data were processed

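The authors deposited raw whole-number counts for each gene and FPKM values, scaled by gene length and library size and rounded to 2 decimals, per the file headers and values. HISAT2, DESeq2 and the build mRatBN7.2 are named in the submitters' processing notes. What annotation, counter and strand setting were used, and in which versions, is not given in the sources used here, so values of genes that overlap others are uncertain. No row lacked a gene name (0 set aside).

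The test was edgeR 4.0.16 (glmQLFit, glmQLFTest; R 4.3.3) on the counts of all 6 libraries with TMM factors, filterByExpr and no term but the group, fitted on the whole table. The filter removed 6840 genes with 0.0465% of the counts, none of them a channel gene of the rule. Benjamini-Hochberg adjustment ran over 12985 genes, with calls under 0.05. Log2 fold changes are siPUM2 minus NC, and the SE comes from the F statistic. FPKM served only to compare levels between genes. The test was checked on counts simulated with the levels and dispersions of these data. Such counts meet the assumptions of the test, so the check cannot show whether the spread within a group is technical. The chi-square statistic between libraries of 1 group was 2.04 to 3.65 times its degrees of freedom, above sampling noise, so none was treated as a copy.

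The channel genes, roles and lists were chosen with earlier results of these data known. Genes were named by a rule: up to 12 rises and 12 falls, the 10 highest by FPKM, the 3 nearest the minimum on either side, and 3 called genes of lowest p in each further list, of whose 180 entries 141 matched by symbol. Other channel genes outside this rule were also named within their roles, and Abcc9 was picked after its values were seen. Of the 48 channel genes, 45 are named; the others enter the counts and sums but are not reported here. Alternatives were other size factors (RLE), no filter, a filter at 1 CPM in 3 libraries, DESeq2 1.42.0, the replicate block, each library left out, and a threshold of 0.01.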

Additional observations from a re-analysis of the deposited data

How the results depend on the processing

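The count of channel genes higher in siPUM2 (7) ranged from 5 to 8 over all alternatives, including 5 to 8 with 1 library left out. The count of channel genes lower (5) was less steady: it was 3 with a filter at 1 CPM in 3 libraries, 2 with DESeq2, 1 at a threshold of 0.01, and 3 to 4 with 1 library left out, where fewer samples were fitted. Piezo1, Trpv2, Kcnj8, Kcnd1, Cacna1g and Kcnh1, 6 of the 12 called genes, passed under every alternative fit at the 0.05 threshold, the other 6 lost the call in at least 1, and 4 others gained one. Of the 48 genes, 42 were left at the 1 CPM filter and 46 had an adjusted p in DESeq2. The count of ion transport genes of the further lists that fell (10) was 6 with DESeq2 and 6 to 9 with 1 library left out. Over all genes, 1961 were higher and 1731 lower, against 1521 and 1388 with DESeq2. The log2 fold change of Pum2 stayed between -0.88 and -0.84. Signs turned for 7 channel genes, none of them called, each with 1 library left out: the log2 fold change of Trpm7 ranged from -0.025 to 0.094 and that of Kcnk2 from -0.77 to 0.16, and the others were Trpm4, Cacnb1, Cacnb2, Cacna2d4 and Hcn3. Same-numbered libraries did not deviate together (correlations of deviations from the group means 0.0342, 0.0204 and 0.00270, where over 0.1 was asked), and NC 3 correlated best with siPUM2 2, so the numbers were not taken as pairs. The replicate block gave 7 channel genes higher and 5 lower, 1984 and 1748 over all genes, and 37 and 9 in the further lists. Depth limits the low genes: 17 of the 48 had under 100 mean counts, with errors up to 0.372 on the log2 scale.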
